A study of Mus musculus with 8 samples.

Results

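The galectin family comprised 8 genes, Lgals1, Lgals2, Lgals3, Lgals4, Lgals7, Lgals8, Lgals9 and Lgals12, of the 52325 genes in the count table. Members were taken by their listed symbols through the Ensembl gene identifiers. The list was selected on the same genotype contrast that is described here, with the rise of Lgals7 already known, so the fold changes of the members, and whether they met the call rule used for all genes, are a description and no test of the members, and no p-value is given for them. Of the 8 genes, 7 passed the filter on low counts and entered the comparison of 18174 genes, and Lgals2 did not.

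Bulk RNA-seq was carried out on endometrium cut by laser from frozen uterine sections of 4 wild-type (WT) and 4 Thra1PV/+ mice, all matched at metestrus. Thra1PV/+ mice carry, on 1 allele of the thyroid hormone receptor gene Thra, a knock-in PV mutation whose frame-shifted receptor TRα1 acts as a dominant negative, and the other allele is normal. The mutation is in the germ line and is therefore present in every cell type of the section, and the ages of the sequenced mice were not given in the sources used here. The comparison asked which endometrial genes differed when this receptor was present.

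Galectins are small lectins that bind β-galactoside sugars on glycoproteins and glycolipids, outside the cell after unconventional secretion and inside it on damaged vesicles. They fall into prototype members with a single sugar-binding domain (Lgals1, Lgals2, Lgals7), the chimera member Lgals3 with a collagen-like tail, and tandem-repeat members with a pair of linked domains (Lgals4, Lgals8, Lgals9, Lgals12). In the endometrium Lgals1 is known from stroma and decidua, Lgals3 and Lgals9 from epithelium, and Lgals1 and Lgals9 from immune tolerance in pregnancy. Lgals7 is a galectin of stratified squamous epithelia such as epidermis, and Lgals12 is best known from adipocytes.

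Libraries held 48791602 to 59818887 estimated reads on genes. Thra was counted in both genotypes at a log2 fold change of 0.04 ± 0.39 (SE, n = 4 against 4), and gene counts do not separate PV from normal transcripts, so this value does not check the labels. Klf9, a thyroid hormone target, had a log2 fold change of -2.02 ± 0.65 with an edgeR adjusted p of 0.351, and DESeq2 called it lower. The labelled tissue carried markers of both endometrial compartments, with summed TMM-normalized CPM (counts scaled to library size) of 1726 to 4708 for 6 simple epithelium genes and 381 to 4170 for 6 stroma genes. WT library 1 stood apart by its smooth muscle markers, at 12640 CPM. WT libraries 2 to 4 had 529 to 1094 CPM of these markers and the mutants 125 to 638 CPM. With that library included, all 6 smooth muscle genes had an unadjusted p under 0.05, lower in Thra1PV/+ (median log2 fold change -4.31), and edgeR called 0 of them. DESeq2, which gave an adjusted p for 1 of the 6, called 0. Thra1PV/+ library 1 and WT libraries 1 and 2 held the most stroma marker RNA (3640 to 4170 CPM) and the least simple epithelium marker RNA (1726 to 2422 CPM). Markers of stratified squamous epithelium separated the genotypes, at 2826 to 4375 CPM in Thra1PV/+ and 1.26 to 64.4 CPM in WT, and 7 of the 8 genes were called higher by edgeR, all but Krt6a. In such bulk tissue, fewer cells of a type and less RNA per cell cannot be told apart.

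Of the galectins, Lgals7 and Lgals4 lie side by side on chromosome 7, and of this pair only Lgals7 was called. Lgals7 (chr7:28863853-28866284, plus strand, GRCm38) starts 22144 bases downstream of the end of Lgals4 (chr7:28833854-28841708, plus strand). The 250 bases before each RefSeq start (GRCm38.p6) are shown to set the promoter of the called gene beside that of its neighbour. Capitals mark GGGCGG, the GC box, read on both strands.
Lgals7, chr7:28864136-28864385, plus strand: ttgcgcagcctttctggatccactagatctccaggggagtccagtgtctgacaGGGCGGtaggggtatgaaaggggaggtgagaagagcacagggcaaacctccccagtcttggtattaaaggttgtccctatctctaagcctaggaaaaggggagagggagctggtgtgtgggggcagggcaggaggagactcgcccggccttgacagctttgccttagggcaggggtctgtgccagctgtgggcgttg
Lgals4, chr7:28833544-28833793, plus strand: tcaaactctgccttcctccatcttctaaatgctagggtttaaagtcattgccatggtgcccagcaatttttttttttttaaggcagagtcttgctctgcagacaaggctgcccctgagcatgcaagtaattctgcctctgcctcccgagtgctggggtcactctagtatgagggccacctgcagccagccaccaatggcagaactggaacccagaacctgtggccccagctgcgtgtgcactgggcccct
The Lgals7 window held 1 GC box on the plus strand and the Lgals4 window held none. RefSeq places the Lgals7 start inside the longer GENCODE gene, so this window overlaps annotated Lgals7 sequence. Of the 8 members, 6 had a promoter entry, and the Lgals3 window held the only other GC box. That motif was present in 32.7% of 32851 promoter windows of this length. Of the 6 windows, those of Lgals3 and Lgals8 also lie inside the longer GENCODE genes, and that of Lgals9 overlaps the edge of its gene. AGGTCA, the half-site bound by thyroid hormone receptors, was in none of the 6 windows and in 14% of all windows. Neither TATAAA (the TATA box, 12.4% of all windows) nor TGACTCA (an AP-1 site, 4.46%) occurred in any of the 6. Each motif was searched on both strands, and these motifs do not overlap each other in sequence. GC content was 58.8% for Lgals7, 53.6% for Lgals4 and 66% for Lgals3, against a median of 52.4% over all windows.

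Lgals7, the squamous galectin, was low in every WT library and abundant in every Thra1PV/+ library. Its estimated counts were 16, 42, 56 and 45 in WT libraries 1 to 4. The counts in Thra1PV/+ libraries 1 to 4 were 1484, 6980, 5348 and 3547. The genotypes did not overlap, and the lowest mutant library was far above the highest WT library. Mean levels were 85.1 ± 50.5 CPM in Thra1PV/+ and 0.780 ± 0.348 CPM in WT (SD, n = 4 each), a log2 fold change of 6.77 ± 0.67 (SE) or 109-fold. With limma on log2(TPM + 1) it was 5.94. Within the mutants Lgals7 spanned 2.38 log2 units, from 27.2 CPM in library 1 to 142 CPM in library 2. Lgals7 shares no 31-base word of its annotated transcripts with any other gene, and an antisense gene, Gm10648, overlaps it.

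Lgals12, the galectin of adipocytes, was the other member that met the call rule (fold of 2 or more and edgeR adjusted p of 0.1 or less). It had 53, 87, 187 and 180 counts in WT libraries 1 to 4. In the mutants it had 737, 894, 693 and 1001 counts. Again the genotypes did not overlap, and the 4 mutant libraries lay close together, over 0.42 log2 units, whereas WT spanned 1.86. The means were 15.8 ± 2.33 CPM in Thra1PV/+ and 2.52 ± 1.43 CPM in WT (SD, n = 4 each), a log2 fold change of 2.65 ± 0.45 or 6.29-fold. This call was lost when Thra1PV/+ library 2, 3 or 4 or WT library 2 was left out, at log2 fold changes of 2.58, 2.70, 2.60 and 2.52. With limma on log2(TPM + 1), a scale that compresses low levels, it was 1.97.

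Thus 2 of 7 tested members were called, both higher in Thra1PV/+, beside 0.99% of all tested genes called and 0.924% called higher. Those 2 were also the only members whose CPM values did not overlap between genotypes, beside 6.04% of all tested genes. DESeq2 called the same 2 members, beside 3.58% of 22073 genes. Since the list was chosen on this contrast, nothing is read from these shares.

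**Figure D1:**
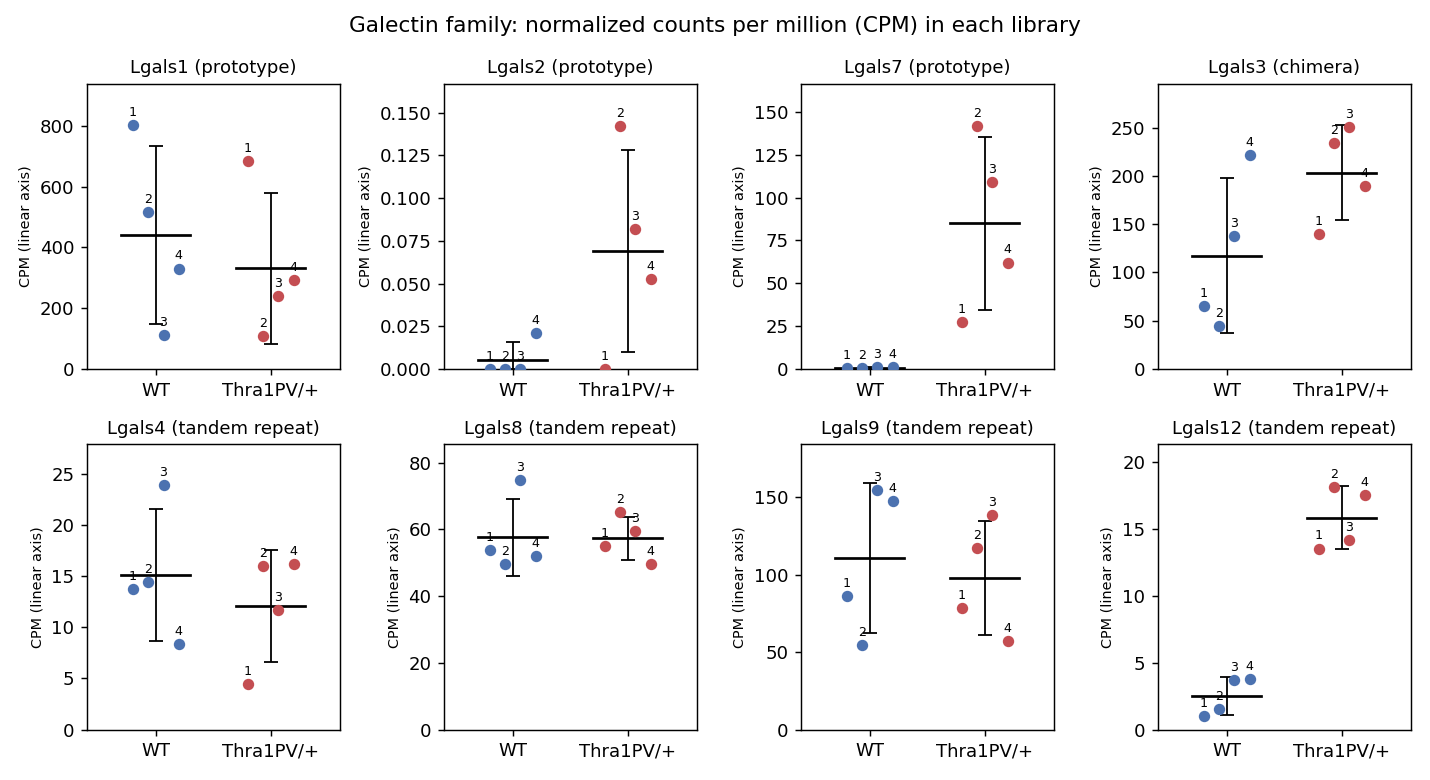
Normalized CPM of the 8 galectins (linear axes from 0, each with its own scale) in WT (blue) and Thra1PV/+ (red) libraries, numbered by replicate. Horizontal lines are means and bars are SD over 4 libraries, ending at 0 where the SD is larger than the mean. Lgals7 and Lgals12 are the panels in which all red points lie above all blue points, at 27.2 to 142 CPM against 0.305 to 1.11 CPM for Lgals7.

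As a sum, adipocyte markers overlapped between the genotypes. Summed over Adipoq, Plin1, Cidec, Lep and Plin4, they reached 0.467 to 3.49 CPM in Thra1PV/+ and 1.15 to 28.2 CPM in WT. They were highest, through Plin4, in WT library 1, which also had the most smooth muscle marker RNA. WT libraries 2 to 4 had 1.15 to 1.69 CPM, within the mutant range. Lep had 0 counts in all 8 libraries, and 1 of the 5 genes, Plin4, passed the filter. Adipoq had 0 to 4 counts in the WT libraries and 0 to 77 in the mutants, and Cidec had 0 to 4 and 0 to 40. A single mutant library held 77 of the 78 mutant Adipoq counts and all 40 mutant Cidec counts. At such low counts the part of adipocytes in Lgals12 was not tested. Squamous markers stood beside both called galectins. In Thra1PV/+ the library with the least squamous marker RNA, library 1 at 2826 CPM, also had the lowest CPM of Lgals7 and of Lgals12. The order differed among the rest for both genes. Library 3 had the most squamous marker RNA (4375 CPM), with 109 CPM of Lgals7 and 14.2 CPM of Lgals12. Library 2 had 4180 CPM of these markers and 142 CPM of Lgals7. Library 4 had 3256 CPM of them and 17.5 CPM of Lgals12. Expressed as a percentage of the summed squamous markers, a scale chosen after the values were seen, Lgals7 overlapped between genotypes, at 0.964% to 3.39% in Thra1PV/+ and 1.73% to 24.2% in WT. Lgals12 on that scale lay lower in every mutant library, at 0.324% to 0.538% against 4.19% to 80.3% in WT. The WT denominators were small, 1.26 CPM in library 1, and the part of squamous epithelium in either gene's rise was not tested.

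Lgals1, a dimeric prototype galectin that cross-links glycoproteins, was the most abundant member per length in 7 of 8 libraries and did not separate the genotypes. Its counts were 42032, 28530, 5610 and 15781 in WT libraries 1 to 4. In Thra1PV/+ libraries 1 to 4 they were 37273, 5316, 11753 and 16680. Each genotype thus held high and low libraries, and the ranges of 112 to 802 CPM in WT and 108 to 684 CPM in Thra1PV/+ nearly coincided. The log2 fold change was -0.41 ± 0.67, and it was 0.092 without WT library 1, the library with 12640 CPM of smooth muscle markers. The 3 libraries with the highest Lgals1 (WT 1, Thra1PV/+ 1 and WT 2) were the same 3 libraries with the most stroma marker RNA. The lowest mutant library for Lgals1, library 2, also had the least stroma marker RNA, at 381 CPM. WT library 3, the lowest of its genotype for both, had 112 CPM of Lgals1 at 1378 CPM of stroma markers. Thra1PV/+ libraries 3 and 4 had less stroma marker RNA (816 and 1022 CPM) but more Lgals1 (240 and 292 CPM). The part of stroma or smooth muscle content in Lgals1 was not tested.

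Lgals2, a prototype galectin of gut epithelium, was close to undetected. It had 0, 7, 4 and 3 counts in Thra1PV/+ libraries 1 to 4 and 0, 0, 0 and 1 in WT. The sums were 14 and 1 counts. With WT at or below the floor of 3 counts, no fold is given. The Lgals2 gene (chr15:78850860-78855529, minus strand) lies 71195 bases from Lgals1 (chr15:78926725-78930465, plus strand) and overlaps Cdc42ep1 on the other strand, with which it shares 8 of its 562 31-base words.

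Lgals3, the chimera galectin that oligomerizes into lattices on cell surfaces, had the next largest fold change after the called members. WT libraries 1 to 4 held 3430, 2448, 6897 and 10605 counts. Thra1PV/+ libraries 1 to 4 held 7596, 11525, 12250 and 10848. WT was spread over 2.33 log2 units and the mutants over 0.84, and 2 mutant libraries exceeded every WT library. Mean levels were 203 ± 49.6 CPM in Thra1PV/+ and 117 ± 80.4 CPM in WT (SD, n = 4 each), a log2 fold change of 0.80 ± 0.48 that did not meet the call rule. Within each genotype the libraries with the least simple epithelium marker RNA, Thra1PV/+ 1 and WT 1 and 2, were the lowest for Lgals3. At similar epithelial marker levels of 1726 and 1761 CPM, Thra1PV/+ library 1 had 139 CPM of Lgals3 and WT library 1 had 65.4 CPM. At a higher epithelial marker level of 4337 CPM, Thra1PV/+ library 3 had 250.3 CPM. WT library 3, at 4481 CPM of these markers, had 137 CPM of Lgals3, and WT library 4, at 4708 CPM, had 222 CPM. The part of epithelial content in Lgals3 was not tested.

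Among the tandem-repeat members, Lgals9, a ligand of Tim-3 on T cells, overlapped fully between genotypes. It had 4516, 3011, 7759 and 7045 counts in WT libraries 1 to 4. In Thra1PV/+ it had 4285, 5779, 6776 and 3259. The log2 fold change was -0.18 ± 0.39, with means of 97.9 ± 36.8 CPM in Thra1PV/+ and 111 ± 48.4 CPM in WT. The 4 libraries with the highest Lgals9 (WT 3 and 4, Thra1PV/+ 3 and 2) were those with the most simple epithelium marker RNA. Among the rest the order differed. Thra1PV/+ 1 and WT 1, with the least of this marker RNA, had 78.7 and 86.2 CPM of Lgals9. Thra1PV/+ 4 and WT 2 had more marker RNA but 57.1 and 54.4 CPM of Lgals9. The part of epithelial content in Lgals9 was not tested.

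Lgals8, which marks damaged endosomes and lysosomes for autophagy, was the steadiest tested member. It had 2820, 2756, 3765 and 2486 counts in WT libraries 1 to 4, and 2997, 3211, 2907 and 2838 in Thra1PV/+. Over all 8 libraries it spanned 0.59 log2 units, from 49.7 to 74.9 CPM. Means were 57.3 ± 6.56 CPM in Thra1PV/+ and 57.6 ± 11.6 CPM in WT (SD, n = 4 each), a log2 fold change of -0.0077 ± 0.16 whose sign turned under other settings. Lgals8 shares 5.53% of its 31-base words with other genes, mostly with Heatr1, which overlaps it on the other strand.

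Lgals4, a galectin of intestinal-type epithelium, had 721, 797, 1201 and 401 counts in WT libraries 1 to 4. In Thra1PV/+ it had 242, 788, 573 and 923. The ranges overlapped, with the lowest value in Thra1PV/+ library 1, and the log2 fold change was -0.32 ± 0.45. Without Thra1PV/+ library 1 it was 0.0025 and without WT library 3 it was 0.0076. The 5 intestinal-type epithelium markers summed to 2.69 to 7.83 CPM in WT and 2.74 to 5.72 CPM in Thra1PV/+, and Cdx2 had 0 counts in all libraries.

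Lgalsl, a galectin-fold gene that is not a member, had a log2 fold change of 0.32 ± 0.15 with an edgeR adjusted p of 0.542. Grifin, the galectin-fold protein of the lens, had 0 counts in all 8 libraries, which allows up to 0.0525 to 0.0628 CPM per library, by counting error only.

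Per transcript length, Lgals1 led both genotypes and Lgals7 ranked below Lgals4 in WT but above Lgals9 in Thra1PV/+. Levels here are the deposited TPM values (transcript abundance scaled for length), which had also been quantile-normalized across libraries, as have the family shares computed from them. In WT the order was Lgals1 at 770 ± 512 TPM, Lgals3 at 134 ± 84.7, Lgals9 at 86.1 ± 34.3, Lgals8 at 35.01 ± 5.36, Lgals4 at 18.4 ± 6.39, Lgals7 at 2.09 ± 1.13, Lgals12 at 1.42 ± 0.924 and Lgals2 at 0.0146 ± 0.0291 (SD, n = 4). Neighbours that overlapped between libraries in WT were Lgals1 with Lgals3, Lgals3 with Lgals9, and Lgals7 with Lgals12. Within single WT libraries each member lay above the next in all 4. In Thra1PV/+ the order was Lgals1 at 646 ± 575 TPM, Lgals3 at 237 ± 41.3, Lgals7 at 200 ± 105, Lgals9 at 81.4 ± 26.9, Lgals8 at 36.6 ± 3.74, Lgals4 at 14.5 ± 7.12, Lgals12 at 8.02 ± 1.53 and Lgals2 at 0.166 ± 0.146. From Lgals1 to Lgals9 each member overlapped with the next, as did Lgals4 with Lgals12, and the steps from Lgals9 to Lgals8, Lgals8 to Lgals4 and Lgals12 to Lgals2 were clear of overlap. Within single Thra1PV/+ libraries Lgals7 lay above Lgals9 in all 4. Lgals1 lay above Lgals3, Lgals3 above Lgals7 and Lgals4 above Lgals12 in 3 of 4. CPM per kilobase of transcript gave the same 2 orders.

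**Figure D2:**
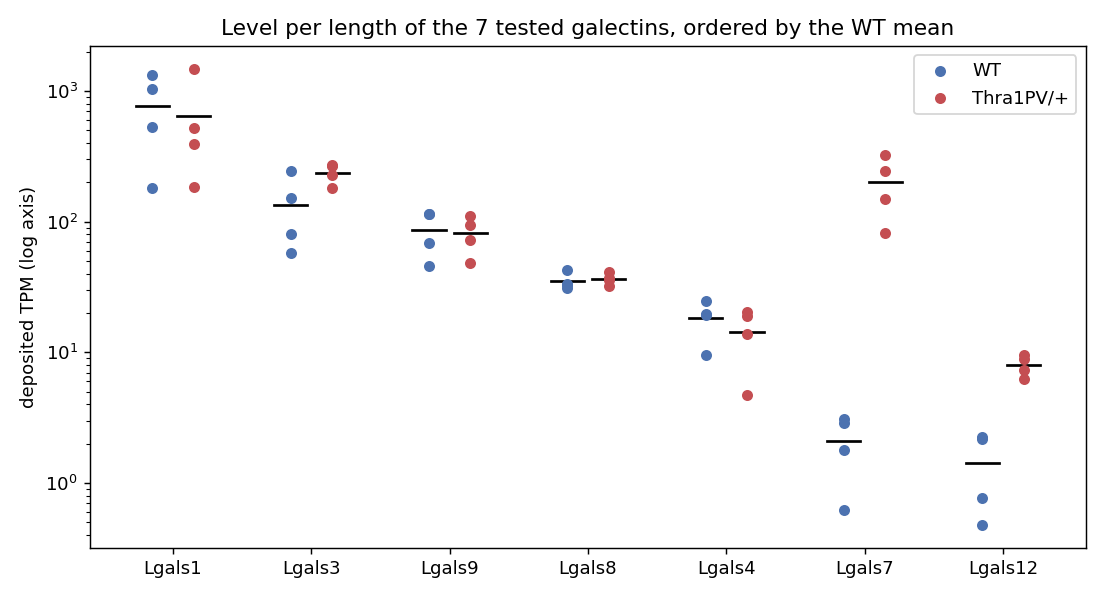
Deposited TPM (log axis) of the 7 tested galectins in WT (blue) and Thra1PV/+ (red), 1 point per library with a line at the mean of 4, ordered by the WT mean. The red Lgals7 points, 82.3 to 323 TPM, sit among Lgals3 and Lgals9, whereas the blue ones, 0.620 to 3.08 TPM, sit beside Lgals12.

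Lgals7 made up a larger part of the galectin RNA in every mutant library than in any WT library. Its share of the summed TPM of the 8 members was 4.42%, 34.4%, 22.7% and 14.9% in Thra1PV/+ libraries 1 to 4. In WT libraries it was 0.0404% to 0.591%. Library 2 of the mutants was the only library in which Lgals7, and not Lgals1, led the family. The Lgals1 share ranged from 34.8% to 86.8% in WT and from 19.6% to 79.5% in Thra1PV/+. Total galectin TPM overlapped between genotypes, at 521 to 1535 in WT and 938 to 1865 in Thra1PV/+. Lgals12 stayed a minor member, at 0.0312% to 0.433% in WT and 0.335% to 1.02% in Thra1PV/+.

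**Figure D3:**
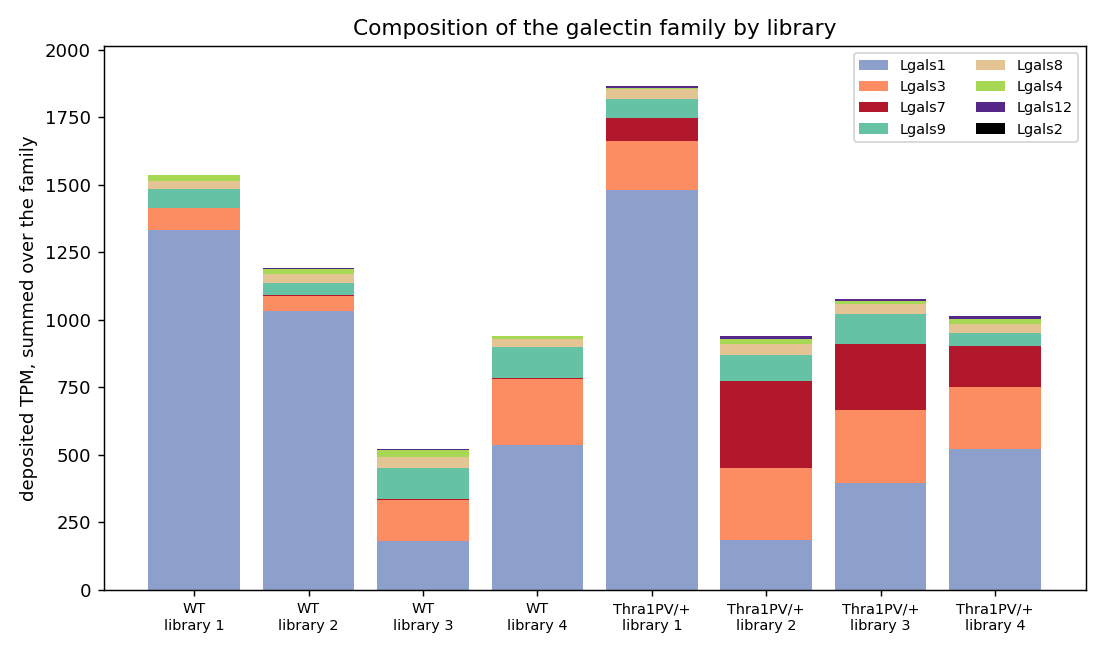
Deposited TPM of the 8 galectins stacked by library, WT on the left and Thra1PV/+ on the right. The dark red Lgals7 band is 4.42% to 34.4% of the bar in the mutants and 0.0404% to 0.591% in WT, and the blue Lgals1 band sets most of the height in the libraries with the tallest bars.

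The genes nearest in pattern to each widely varying member were sought among 12132 tested genes (mean log2 CPM 2 or higher), by the root mean square difference of centred log2 CPM over the 8 libraries. This is a description over libraries that share the genotype split. The genes were picked over these same libraries, so their fold changes and calls largely follow from the picking. Over all tested genes 0.99% were called by edgeR. For Lgals7 the 5 nearest were Lypd2, the water channel Aqp3, the potassium channel Kcnj15, the water channel Aqp4 and Ly6d, at differences of 0.49, 0.52, 0.56, 0.67 and 0.69 log2 units. All 5 were called higher by edgeR, with log2 fold changes of 5.51 to 6.34. For Lgals12 they were the transglutaminase Tgm5, Ces2g, the epidermal transcription factor Zfp750, Plekhg6 and Bcl11a, at 0.39 to 0.50 log2 units. Of these, Ces2g, Zfp750 and Bcl11a were called, at log2 fold changes of 2.96, 2.67 and 2.22.

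The members without a genotype split had other neighbours. Nearest to Lgals1 were Fam69b, the matrix metalloproteinase Mmp2, the thrombin receptor F2r, Olfml3 and Zc4h2, at 0.17 to 0.22 log2 units. Lgals3 was nearest to the adhesion gene Mpzl2, Ptprr, the GABA receptor subunit Gabrp, Endod1 and the stress gene Ddit4, at 0.18 to 0.28. For Lgals4 the nearest were Tgfbr3l, 4933439C10Rik, Kifc2, Gm47031 and the glutamine transporter Slc1a5, at 0.20 to 0.31. None of these 15 genes was called by edgeR, beside 0.99% of all tested genes, which again largely follows from how they were picked. Ranking by Pearson correlation shared 4 of the 5 genes for Lgals7, 3 for Lgals4, 2 for Lgals3 and 1 each for Lgals1 and Lgals12.

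**Figure D4:**
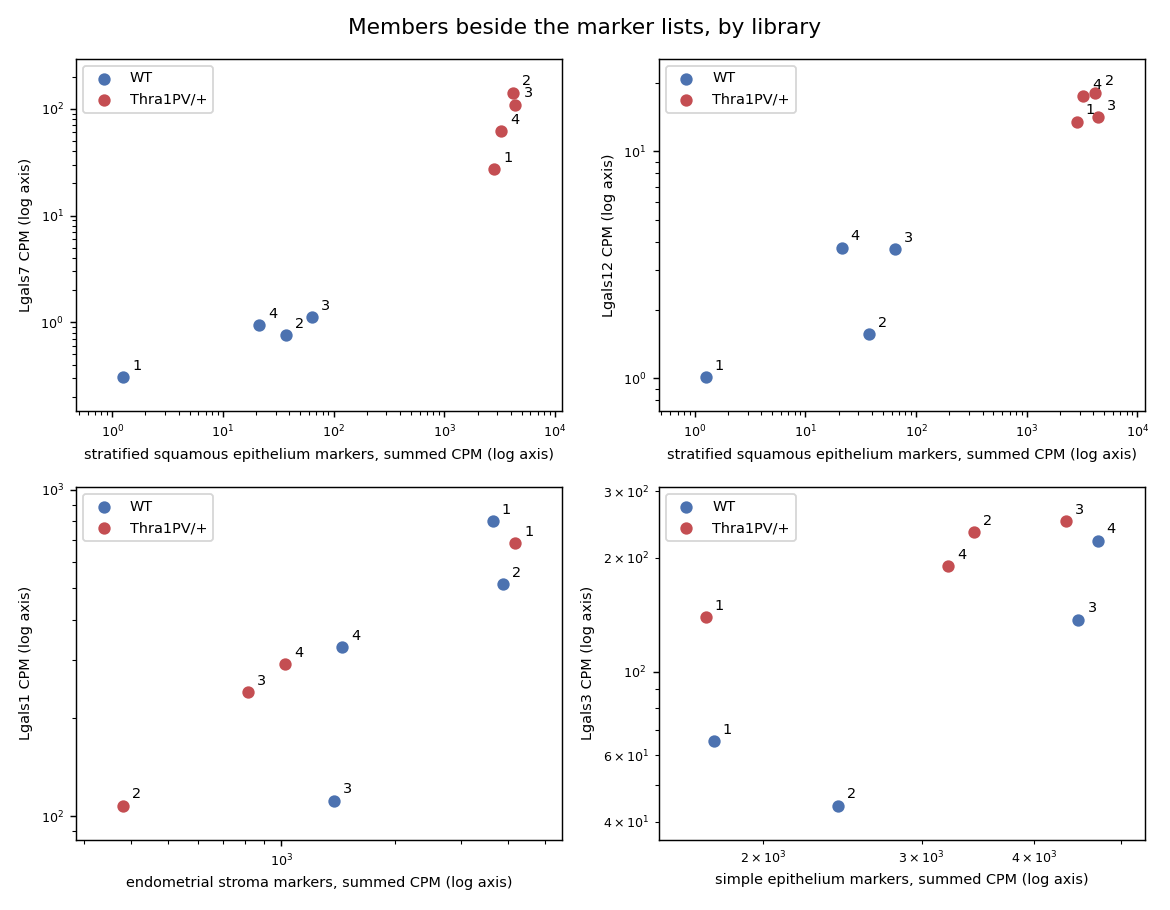
CPM of 4 galectins against the summed CPM of a marker list (log axes), 1 point per library numbered by replicate, WT blue and Thra1PV/+ red. Lgals7 and Lgals12 form a WT and a mutant cloud split along the squamous markers, while Lgals1 beside stroma markers mixes the genotypes. Lgals3 overlaps between genotypes along each axis, with WT library 4 at 222 CPM above Thra1PV/+ libraries 1 and 4 at 139 and 190 CPM.

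Glycoproteins that galectins bind and proteins that act with them were counted next. Of 26 genes, all tested, edgeR called 0, beside 0.99% of all tested genes, and 3 had an unadjusted p under 0.05, beside 9.77%. Counts this close to those of all genes say nothing particular of the list. DESeq2 called 1, Havcr2. The median log2 fold change was 0.02, beside -0.05 over all tested genes. Havcr2, which encodes the Lgals9 receptor Tim-3, had a log2 fold change of 1.13 ± 0.40 (adjusted p = 0.393). Its levels were 6.76, 1.87, 4.50 and 3.24 CPM in Thra1PV/+ libraries 1 to 4 and 1.57 to 2.04 CPM in WT, so mutant library 2 fell among the WT values. Macrophage markers summed to 708, 200, 450 and 391 CPM in the same 4 mutant libraries and 251 to 481 CPM in WT, so library 1 was highest and library 2 lowest for both. T cell markers summed to 21.4, 5.19, 16.1 and 26.5 CPM in these mutant libraries and 3.22 to 8.93 CPM in WT. Library 2 was again the lowest mutant library, and library 4 was the highest. The part of either cell type in Havcr2 was not tested.

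Cd44, the hyaluronan receptor, had 58.3 to 136 CPM in Thra1PV/+ and 11.6 to 60.8 CPM in WT, a log2 fold change of 1.29 ± 0.47 (adjusted p = 0.413). Itgb1, the integrin β1 chain, had a log2 fold change of -0.58 ± 0.23 (adjusted p = 0.453). Slc3a2, the CD98 heavy chain that Lgals3 binds, was the only listed gene without overlap, at 129 to 151 CPM in Thra1PV/+ and 105 to 126 CPM in WT, and its log2 fold change was 0.26 ± 0.12 (adjusted p = 0.527).

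Enzymes that build or cap galectin ligands were all tested. Of the 22, edgeR called 0 (0.99% of all tested genes) and 1 had an unadjusted p under 0.05 (9.77% of all tested genes). DESeq2 called 0, and the median log2 fold change was -0.04. St3gal4, a sialyltransferase that caps galactose, had 19.6 to 42.5 CPM in Thra1PV/+ and 5.83 to 22.2 CPM in WT, a log2 fold change of 1.23 ± 0.42 (adjusted p = 0.373). Mgat4a, a branching enzyme of N-glycans, had a log2 fold change of 1.47 ± 0.67 (adjusted p = 0.536). Gcnt3, which builds core branches of mucin O-glycans, had -0.96 ± 0.53 (adjusted p = 0.615). Mgat5, the enzyme that adds the branch favoured by Lgals3, had -0.47 ± 0.27 (adjusted p = 0.635).

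Genes of the autophagy of damaged membranes, where Lgals3 and Lgals8 act inside the cell, had a median log2 fold change of -0.12, beside -0.05 over all tested genes. Of 13 genes, 12 were tested (Calcoco2 was not), edgeR and DESeq2 called 0, and 4 had an unadjusted p under 0.05, beside 0.99% called by edgeR and 9.77% at that p over all tested genes. Gabarapl1, an Atg8-family protein of autophagosomes, had 127, 85.6, 126 and 119 CPM in Thra1PV/+ libraries 1 to 4. In WT it had 204, 161, 289 and 185 CPM, so the genotypes did not overlap. Its log2 fold change was -0.87 ± 0.22 (edgeR adjusted p = 0.193), and the DESeq2 adjusted p was 0.0357 at a fold under the limit of 2. Trim16, a ubiquitin ligase that works with Lgals3 at damaged lysosomes, did not overlap either, at 36.5 to 53.1 CPM in Thra1PV/+ and 17.4 to 33.2 CPM in WT, a log2 fold change of 0.74 ± 0.24 (adjusted p = 0.350). Tecpr1, an autophagosome-lysosome tether, had -0.40 ± 0.14 (adjusted p = 0.384), and Calcoco1, an autophagy receptor, had -0.57 ± 0.23 (adjusted p = 0.489). Of these 12 genes 3 did not overlap between genotypes, as did 1 of the 26 partners and 0 of the 22 glycan enzymes, beside 6.04% of all tested genes.

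**Figure D5:**
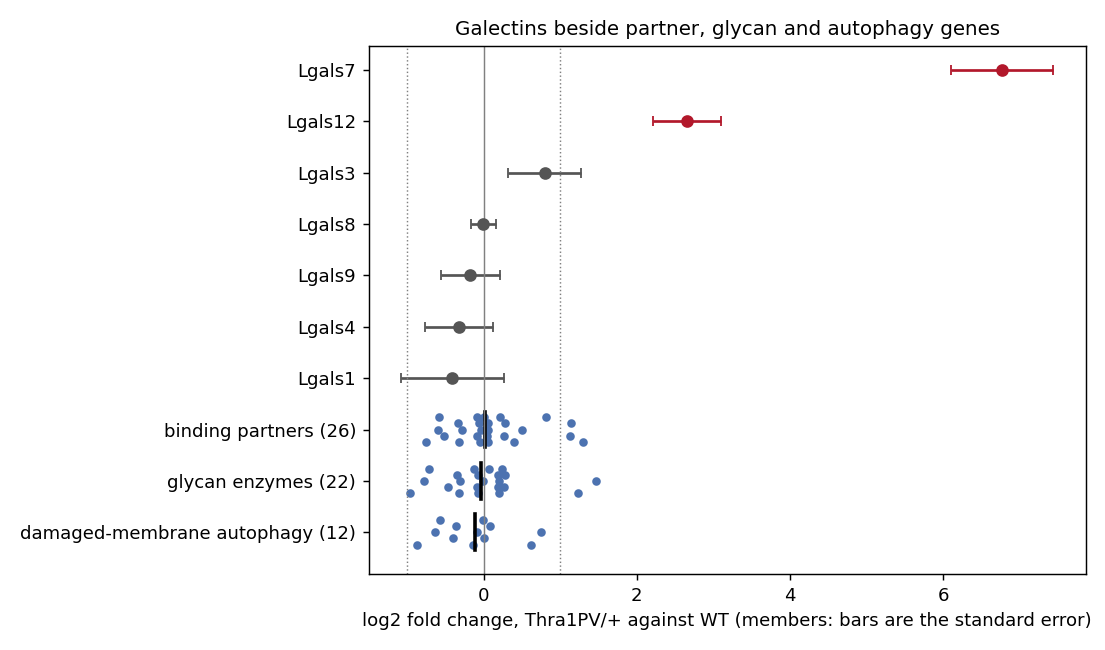
Log2 fold change, Thra1PV/+ against WT, for the 7 tested galectins (points with SE, called members in red) and for each tested gene of the 3 lists (blue points, median as a black bar). Dotted lines mark a fold of 2 in each direction. Lgals7 lies at 6.77 and Lgals12 at 2.65, and the genes of the 3 lists run from -0.96 to 1.47. The family was chosen with this contrast known, so nothing is read from that difference.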

How the data were processed

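RNA from laser-captured endometrium of 4 WT and 4 Thra1PV/+ mice was prepared with a stranded mRNA kit and sequenced in paired ends. The authors trimmed reads with Trimmomatic, quantified transcripts with Salmon on mm10 and deposited estimated counts per gene; versions and the annotation release are not given in the sources used here. The authors also deposited TPM values, whose sorted values agree between libraries to within 0.29 TPM at every rank, so they had been quantile-normalized, and 1 column of that table matched no sample and was not used.

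Counts were rounded and tested with edgeR 4.0.16 in R 4.3.3 (quasi-likelihood test, TMM, filterByExpr with a minimum count of 10, genotype as the only term) over all genes, with Benjamini-Hochberg adjustment; a call needed a fold of 2 or more and an adjusted p of 0.1 or less, the thresholds of the study. DESeq2 1.42.0 and limma 3.58.1 on log2(TPM + 1) or log2(TPM + 0.1) were alternatives, as were other scalings, filters, a replicate block and leaving out each library. The fitting steps were tested on simulated data. Log2 CPM used a prior count of 2. The labels do not say that libraries came from separate mice, but the study's methods do. At 48791602 counts or more per library, counting error was largest for Lgals2 (0 to 7 counts) and for Lgals7 in WT (16 to 56 counts).

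The members and all gene lists were chosen with earlier results of these data known. Named genes were all members, other galectin-fold genes, Thra and Klf9, called genes of 3 lists and the 4 with the smallest p in each, marker genes beside a member, and the 5 nearest genes of tested members spanning over 2 log2 units. Positions are from GENCODE M21 (GRCm38, as mm10), where 6 of the 8 member identifiers had the same version as in the count table. Shared 31-base words were counted over its transcripts, and promoters are from RefSeq.

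Checked cell type lists beyond those in the results gave these summed CPM ranges for WT and Thra1PV/+. Neutrophil markers were at 7.93 to 127 and 74.7 to 722, and eosinophil markers at 0.796 to 2.74 and 1.54 to 4.50. Endothelial markers were at 63.8 to 227 and 45.5 to 174, and blood markers at 17.1 to 179 and 14.6 to 29.3.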

Additional observations from a re-analysis of the deposited data

Results flagged for a closer look

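Among 68 sets of 4 libraries examined for a library far from the other 3, 3 stood out, where chance gives about 1 in 20, or 3.4. Mgat5 in WT library 3 lay above the other WT libraries, at a log2 CPM of 6.40 against 5.34 to 5.39 (gap over range 0.953). Gabarapl1 in Thra1PV/+ library 2 lay below the other mutants, at 6.42 against 6.90 to 6.99 (0.850). The summed adipocyte markers in WT library 1 lay above the other WT libraries, at 4.82 on the log2 scale against 0.20 to 0.76 (0.880). No galectin was far from its group by this measure.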

How the results depend on the processing

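Lgals7 kept its direction and its call in all 16 alternatives, at log2 fold changes of 5.94 to 7.11. Lgals3 stayed positive and uncalled in all 16, at 0.56 to 1.30. Lgals12 stayed positive in all 16, from 1.97 (limma at a pseudocount of 1) to 2.93, but lost its call under the replicate block (2.84) and without Thra1PV/+ library 2, 3 or 4 or WT library 2, with 2.43 to 2.93 over the libraries left out, so the number of called members was 1 under the block and 1 to 2 over the libraries left out. Signs turned for uncalled members. Lgals1 ran from -1.0002 to 0.092 over the libraries left out, positive without WT library 1. Lgals4 ran from -0.52 to 0.0076, and Lgals9 from -0.39 to 0.047, positive without WT library 3 or Thra1PV/+ library 4 (0.0096). Lgals8 ran from -0.075 to 0.16, and was positive at 0.019 with DESeq2, 0.016 with its size factors, 0.083 with library size only, 0.018 and 0.0032 under the looser and stricter filters, 0.0049 under the block, and 0.068 and 0.070 with limma at pseudocounts of 1 and 0.1. Over all genes 180 were called, 168 of them higher. DESeq2 called 791, 10 counts in every library left 81, the replicate block 82 and limma at a pseudocount of 1 119. Leaving out a library gave 81 to 167, with 116 without Thra1PV/+ library 2, 81 without library 3 and 114 without WT library 4. DESeq2 called 1 galectin partner. The cause of these changes was not tested.

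Same-numbered libraries of the 2 genotypes had correlations of deviations of 0.27, -0.44, 0.34 and -0.16, so the numbers were not treated as pairs. Library scaling moved the median of all genes by 0.08 or less on the log2 scale. With 0 to 7 counts per library, depth limits Lgals2 to a description.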

Other observations

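Coding genes within 100 kb of the called galectins, a window chosen after the values were seen, are described here. The galectins were taken for their calls, so nothing is read from smaller fold changes in their neighbours. Around Lgals7 all 8 neighbours (Nfkbib, Sirt2, Rinl, Hnrnpl, Ech1, Lgals4, Capn12 and Actn4) were tested. EdgeR and DESeq2 called 0 of them, 0 had an unadjusted edgeR p under 0.05, and their log2 fold changes ran from -0.38 to 0.08. Over all tested genes edgeR called 0.99%, DESeq2 called 3.58%, and 9.77% had an edgeR p under 0.05. Counts this close to those shares say nothing particular of the neighbours. Around Lgals12, at chr19:7596660-7607193 on the minus strand, 2 of 4 neighbours were tested. Atl3 had a log2 fold change of 0.18 and Pla2g16 of -0.019, and neither was called or had an unadjusted p under 0.05.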
